A study of Mus musculus with 44 samples.

Results

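Bone marrow-derived macrophages (BMDMs) from Pgc1b flox/flox mice, with or without a Cre allele, were profiled by RNA-seq after vehicle (Veh) or KLA. The comparison described here sets the libraries labelled Pgc1b_flox_Cre_KLA against those labelled Pgc1b_flox_KLA, and the same pair of genotypes under Veh gives the resting baseline. The members were chosen by label, with 2 libraries in each of 4 groups, which makes 8 of the 44 libraries of the series, and every gene in the count table was followed. All 8 carry loxP-flanked (floxed) alleles of Ppargc1b on a C57BL/6 background, so the controls are flox/flox cells without Cre, not unmodified wild-type cells. By the study's methods the Cre is LysM-Cre, which sits in the Lyz2 locus and is active in myeloid cells. KLA (Kdo2 lipid A) is a pure agonist of TLR4, the receptor for bacterial lipopolysaccharide. The sample records give 6 h of treatment for all 8 libraries. Of the 16 KLA libraries of the series, the column names of 14 state that time, and the 2 that state none are both Pgc1b_flox_Cre_KLA libraries, so for that pair the time comes from the sample records and from the study's methods, which give the same time for KLA in general. No age is given in the labels for these mice, and nothing states that the replicates came from separate animals or cultures, so p-values measure the spread between these libraries.

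Ppargc1b encodes PGC1β, a transcriptional coactivator best known for raising mitochondrial and oxidative genes together with estrogen-related receptors. In macrophages it has been linked to alternative activation and to osteoclast formation, and the study asked whether it serves TLR4-induced genes as part of a complex with the corepressor NCoR and the deacetylase HDAC3. TLR4 signals along a pair of arms: MyD88 leads to NFκB and AP-1 and to cytokines such as TNF, whereas TRIF leads through the kinase TBK1 and the factor IRF3 to interferon β. Secreted interferon β then acts back on the cell through its receptor, IRF9 and IRF7 to induce the antiviral interferon-stimulated genes.

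Gene counts ranged from 9955724 to 13851436 per library, which was 84.5 to 87.3% of mapped reads. Replicates correlated at 0.985 to 0.991 (Pearson r across genes, log2 scale), and in a multidimensional scaling plot KLA set the first axis (82.8% of the variance), on which the control KLA libraries lay at 2.99 and the Cre-labelled KLA libraries at 2.10 and 2.17. The 4 Veh libraries lay between -2.63 and -2.51 on that axis. Levels are given in CPM, the count relative to the TMM-scaled library total, so they compare libraries for one gene and not one gene with another. A gene was called when the adjusted p (edgeR's quasi-likelihood test, Benjamini-Hochberg over 12205 genes tested) was below 0.05 and the fold change above 1.5, and fold changes carry their SE on the log2 scale.

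The targeted gene did not fall with Cre. Ppargc1b was at 4.38 and 2.88 CPM in the Veh controls and at 3.75 and 3.41 in the Cre-labelled Veh libraries, and at 7.81 and 6.78 in the control KLA and 10.3 and 8.74 CPM in the Cre-labelled KLA libraries. The Cre-labelled KLA libraries were thus the highest of the 8 for the gene, with a log2 fold change of 0.38 ± 0.27 (adjusted p = 0.27, not called), and at rest the difference was -0.00 ± 0.29. A gene-level count sums every exon, so excision of the floxed one was not measured here. Lyz2 (lysozyme 2), into which LysM-Cre is inserted, did differ with the label. It was at 8108 and 8325 CPM in the Veh controls against 4397 and 4422 with the Cre label, and at 8049 and 8292 against 4533 and 4393 CPM under KLA. The Cre-labelled libraries lay below the controls in both treatments without overlap, by -0.87 ± 0.05 at KLA and -0.90 ± 0.05 at rest on the log2 scale. In these counts all directions therefore rest on the label and on Lyz2, not on loss of the Ppargc1b transcript. The study also probed PGC1β protein by immunoblot in BMDMs of both genotypes, which RNA counts do not measure. Ncor1 (-0.11 ± 0.07) and Hdac3 (-0.16 ± 0.12) were not called at KLA, nor was any of the 9 measured genes of the NCoR, HDAC3 and p300 list. Of the 9, 8 lay below 0 (median -0.16), and 3 were lower at an adjusted p below 0.05 when no fold threshold was set.

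**Figure D1:**
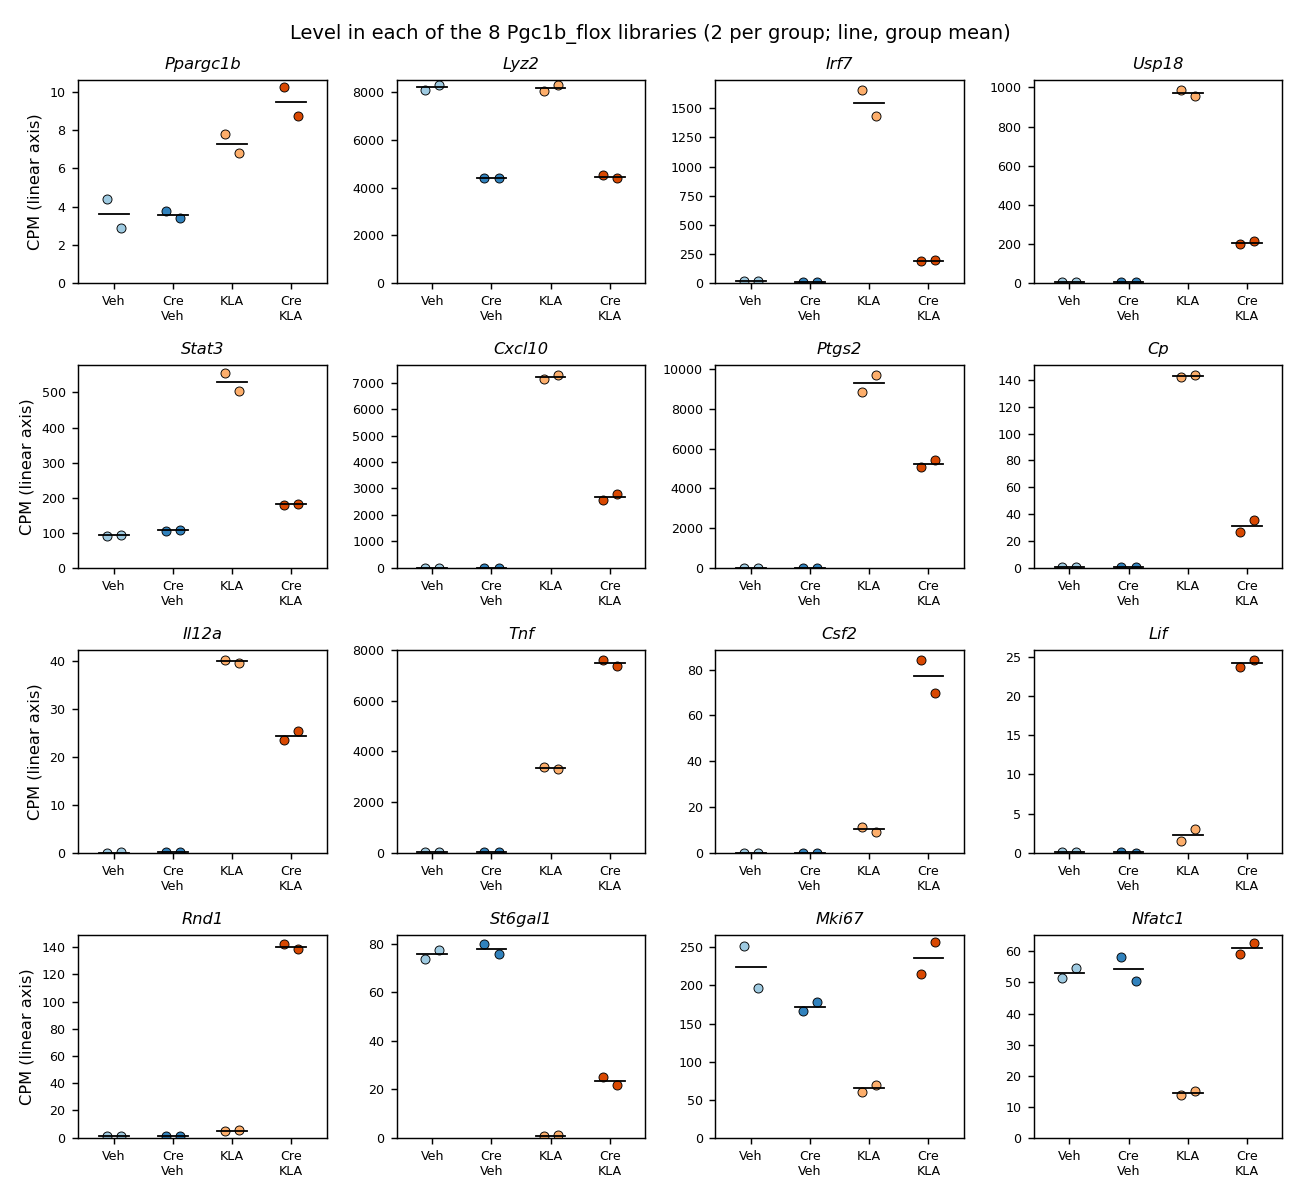
Level of 16 genes in each of the 8 libraries on linear axes that start at 0 and differ between panels (CPM). Points are libraries (2 per group), black lines are group means, and Veh, Cre Veh, KLA and Cre KLA are Pgc1b_flox_Veh, Pgc1b_flox_Cre_Veh, Pgc1b_flox_KLA and Pgc1b_flox_Cre_KLA. Ppargc1b is not lower with the Cre label, Lyz2 is lower with it in both treatments, and the genes in the other panels separate mainly under KLA.

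The interferon-stimulated genes were the group most uniformly lower with the Cre label under KLA, and 4 of their promoters are shown first because each holds the sequence through which interferon-activated factors act. The stretches below are the 250 bases before the transcription start in RefSeq (build GRCm38.p6, mm10), written 5′ to 3′ on the strand of the gene. Capitals mark matches on either strand to the interferon-stimulated response element, searched as the half-site GAAA occurring again after any 2 bases.
Oas3, chr5:120777660-120777909, minus strand: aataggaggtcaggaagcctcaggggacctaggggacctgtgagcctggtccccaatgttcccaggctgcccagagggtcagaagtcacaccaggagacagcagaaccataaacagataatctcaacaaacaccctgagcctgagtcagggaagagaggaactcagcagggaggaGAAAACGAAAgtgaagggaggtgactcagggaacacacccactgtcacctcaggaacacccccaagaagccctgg
Ifit3, chr19:34583279-34583528, plus strand: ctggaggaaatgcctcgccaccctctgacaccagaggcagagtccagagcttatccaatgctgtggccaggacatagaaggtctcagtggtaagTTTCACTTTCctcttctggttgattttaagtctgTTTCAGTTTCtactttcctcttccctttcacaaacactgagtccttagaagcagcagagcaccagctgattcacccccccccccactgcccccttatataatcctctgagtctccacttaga
Gbp2, chr3:142620413-142620662, plus strand: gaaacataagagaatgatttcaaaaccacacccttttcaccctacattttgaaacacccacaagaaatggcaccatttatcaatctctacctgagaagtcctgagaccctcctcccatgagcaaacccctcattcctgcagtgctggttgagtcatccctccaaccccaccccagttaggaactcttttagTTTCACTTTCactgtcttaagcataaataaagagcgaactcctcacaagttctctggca
Rsad2, chr12:26456453-26456702, minus strand: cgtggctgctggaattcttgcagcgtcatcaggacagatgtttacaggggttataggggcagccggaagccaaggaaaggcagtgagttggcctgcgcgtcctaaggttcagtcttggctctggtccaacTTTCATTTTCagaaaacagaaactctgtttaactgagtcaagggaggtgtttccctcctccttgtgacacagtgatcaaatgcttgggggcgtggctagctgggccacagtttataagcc
The match lay 75 bases before the start in Oas3, 59 in Gbp2 and 120 in Rsad2, and Ifit3 had 2 matches at 156 and 122 bases. This motif occurred in 2.98% of all 32851 promoters of that length, in 2.91% of those of the tested genes, in 6.51% of those of genes called lower with the Cre label at KLA and in 2.22% of those of genes called higher. In the list of interferon-stimulated genes 12 of 27 promoters held it (44.4%, from 23 of the 32 genes whose promoters were found). A match describes the letters in this window and does not show that a factor binds there.

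Of the 32 antiviral interferon-stimulated genes on the list, 31 were called lower with the Cre label under KLA and none higher, where 12.9% of all tested genes were called lower and 13.2% higher. Either direction together made 26.1% of all tested genes. The median log2 fold change of the list was -1.73, against -0.000337 for all tested genes. Rsad2, which encodes the antiviral enzyme viperin, was at 15488 and 15959 CPM in the control KLA libraries and at 4184 and 4967 CPM with the Cre label, a log2 fold change of -1.78 ± 0.08 (adjusted p = 4e-13). Oas3, an oligoadenylate synthetase that senses double-stranded RNA, was at 1127 and 1029 against 175 and 188 CPM (-2.57 ± 0.07). In both genes the lowest control library was more than 3 times the highest Cre-labelled one. Gbp2, a guanylate-binding protein, fell from 3995 and 4087 to 925 and 1046 CPM (-2.04 ± 0.06), and Ifit3, an antiviral protein with tetratricopeptide repeats, from 1031 and 1067 to 164 and 208 CPM (-2.50 ± 0.19). The lowest values on the list were those of Iigp1, a GTPase that attacks parasite vacuoles, at 672 and 729 against 35.9 and 52 CPM (-4.0 ± 0.22), Ifi44 at -3.87 ± 0.22 and the exonuclease gene Isg20 at -3.09 ± 0.14. The exception was Parp14 (-0.52 ± 0.06), which was lower in both Cre-labelled libraries but not by 1.5-fold.

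KLA still induced these genes with the Cre label. All 32 were called higher with KLA in each genotype, with a median log2 change of 6.79 without and 4.75 with Cre, and those estimates share no library. The test of the difference between them (the interaction term) called 23 of the 32, all with a smaller KLA change with Cre, against 11.2% of all genes called in that direction, 11.6% in the other and 22.8% in either.

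The factors upstream were divided. The interferon β transcript was not lower with the Cre label. Ifnb1 was at 5.83 and 8.67 CPM in the control KLA and 9.89 and 9.44 CPM in the Cre-labelled KLA libraries. It was higher in both of the latter but not called (0.42 ± 0.32, adjusted p = 0.30). Earlier times and the secreted protein were not measured here. Irf7, the interferon-induced factor that amplifies interferon production, fell from 1661 and 1434 to 185 and 199 CPM (-3.01 ± 0.07). Stat3, which carries the signal of several cytokine receptors, was at 555 and 505 against 179.5 and 182 CPM (-1.55 ± 0.07). The 2 groups did not overlap in either Irf7 or Stat3. In the opposite direction, Cish, a STAT5-induced inhibitor of cytokine receptors, was at 63.2 and 70.1 in the controls and 369 and 339.8 CPM with the Cre label (2.41 ± 0.09), and Stat5a itself was higher by 1.53 ± 0.07. Irf4 was higher as well (1.25 ± 0.30). Over the 24 interferon regulatory factors, interferons and STATs measured, 4 were called higher and 8 lower, with a median of -0.17. These made 16.7% and 33.3% of the list, against 13.2% and 12.9% of all genes.

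A part of this difference was present before KLA. At rest 20 genes were called higher with the Cre label and 17 lower (0.164% and 0.139% of those tested, 0.303% together), and 5 of the 17 were on the list of 32 interferon-stimulated genes, whose resting median was -0.36 against -0.00374 for all genes. Usp18, which dampens the interferon receptor and removes ISG15 from proteins, was at 4.95 and 6.37 CPM in the Veh controls and 3.27 and 2.81 CPM with the Cre label (-0.90 ± 0.18, adjusted p = 0.0052). Oas3 was at 67.7 and 69.7 against 40.7 and 49.3 CPM (-0.61 ± 0.08) and Irf7 at 19.4 and 18.2 against 9.29 and 11.3 CPM (-0.87 ± 0.12). Irf7 belongs to the list of interferon regulatory factors and is not one of the 5. In all 3 genes both Cre-labelled libraries lay below both controls already at rest. The other called members of the 32 were Rtp4 (-0.87 ± 0.16), Oasl1 (-0.63 ± 0.15) and Xaf1 (-0.62 ± 0.15). The resting differences were smaller than those at KLA in Oas3, Irf7 and Usp18, whose interaction terms were -1.96 ± 0.11, -2.14 ± 0.14 and -1.34 ± 0.20, all called, whereas that of Rtp4 was -0.02 ± 0.20 and was not. Irf7 was called at rest in all 15 refits tried, and Usp18 and Rtp4 in 12, Oas3 in 14, Oasl1 in 10 and Xaf1 in 9. The 15 include fits without a KLA library, which the resting comparison does not contrast. Oasl1 and Xaf1 lost the call whenever any single Veh library was left out, and in the fit of the compared groups alone. The count of 5 list members fell to 2 without replicate 1 of Pgc1b_flox_Veh (median -0.21) or without replicate 1 of Pgc1b_flox_Cre_Veh (median -0.25), and Usp18 was not called without replicate 2 of either Veh group.

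**Figure D2:**
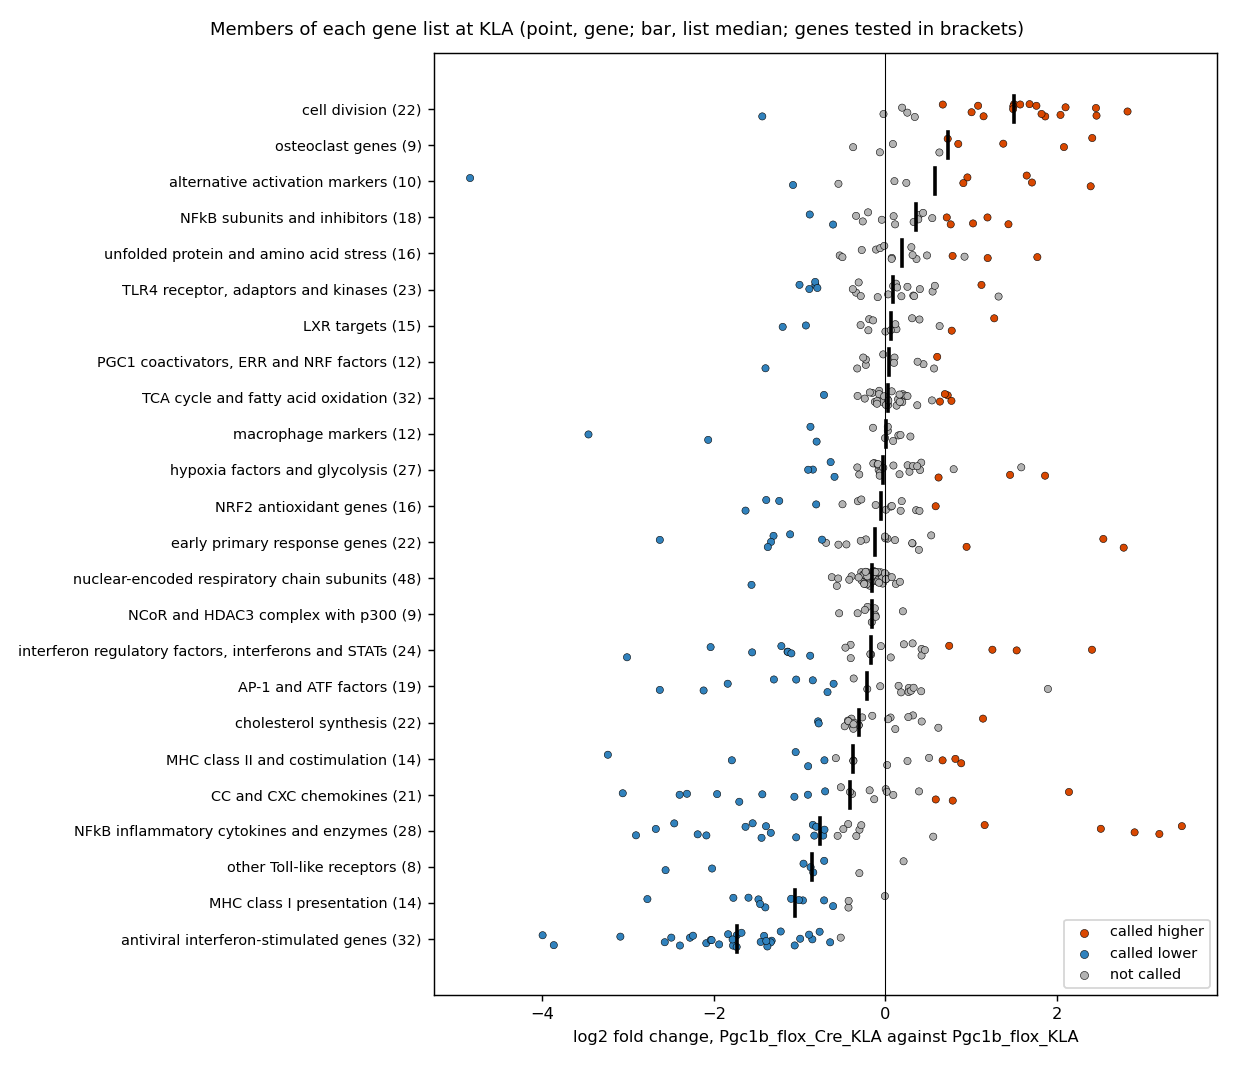
Log2 fold change of the tested members of 24 gene lists in Pgc1b_flox_Cre_KLA against Pgc1b_flox_KLA, with lists ordered by their median (black bar) and the number tested in brackets. Each point is a gene, coloured by its call. The interferon-stimulated genes lie lowest, with 31 of 32 called lower, and the cell division genes highest, with 17 of 22 called higher.

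The resting counts themselves moved with single libraries, as 13 genes were called higher and 9 lower without replicate 1 of Pgc1b_flox_Veh, 13 and 12 without replicate 1 of Pgc1b_flox_Cre_Veh, 17 and 26 without its replicate 2, and 33 and 23 without replicate 2 of Pgc1b_flox_KLA. Of the 37 genes called at rest, 20 were called in the same direction at KLA, 3 in the opposite direction and 14 not at KLA. Among those of the 37 with a mean of 5 CPM or more in either Veh group, Vcam1, an adhesion molecule for integrins, had the highest fold change. It was at 17 and 15.9 CPM in the controls and 42.4 and 42 CPM with Cre at rest (1.36 ± 0.10). Below that level Stk39 (6.48), Tmem114 (4.22) and Cd38 (1.40) had higher log2 fold changes. Fn1, which encodes fibronectin, was at 25.1 and 23.3 against 42.5 and 52.3 CPM at rest (0.97 ± 0.11) and at 39.5 and 36.1 against 120.3 and 128 CPM under KLA (1.71 ± 0.11), so its Cre-labelled libraries were the higher ones in both treatments. Cav1, the coat protein of caveolae, was lower at rest (-1.23 ± 0.19) but not called at KLA (0.32 ± 0.08), with an interaction term of 1.55 ± 0.21 that was. Pla2g16, a phospholipase gene, was lower at rest (-0.89 ± 0.20) and at KLA (-2.08 ± 0.15), and Gprc5b (1.04 ± 0.17) and Plxna4 (1.04 ± 0.23), a plexin receptor for semaphorins, were higher at rest. Lyz1, the near-identical neighbour of Lyz2, was higher (1.28 ± 0.18) where Lyz2 was lower, and Rpl13 (-0.92 ± 0.23), a ribosomal protein gene, has processed copies, so reads of both are uncertain. Of the 71 genes tested within 10 Mb of Lyz2, only Lyz2 and Lyz1 were among the 37, and of the 84 within 10 Mb of Ppargc1b, none was.

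Presentation genes on class I moved with the interferon-stimulated genes. Of the 14 genes measured for antigen presentation by MHC class I, 11 were called lower with the Cre label at KLA and none higher, with a median of -1.05, and the same number had a called, smaller KLA change with Cre. Nlrc5, the transactivator of class I genes, was at 664 and 619.8 CPM in the control KLA libraries and 87.4 and 100.3 CPM with Cre (-2.78 ± 0.09), Tap1, a subunit of the peptide transporter, at 1019 and 927 against 273 and 297 CPM (-1.77 ± 0.07), and Psmb9, an immunoproteasome subunit, at 164 and 149 against 55.2 and 48.4 CPM (-1.60 ± 0.10). At rest none of the 14 was called. MHC class II and costimulatory genes were mixed, with 3 of 14 higher (21.4%, against 13.2% of all genes) and 5 lower (35.7%, against 12.9%). Cd86, the costimulatory ligand of CD28, was at 141 and 132 against 13 and 16.1 CPM (-3.24 ± 0.13), and Cd274, which encodes the checkpoint ligand PD-L1, at 2909.9 and 3029 against 821 and 897 CPM (-1.79 ± 0.06). H2-Ab1, a class II chain, was lower by a log2 fold change of -1.04 ± 0.12. In the opposite direction Cd80, the partner of CD86 (0.89 ± 0.12), Icam1 (0.82 ± 0.06) and Ciita (0.67 ± 0.20), the class II transactivator, were higher.

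The inflammatory genes did not move as one. The study names Ptgs2, Cp and Il12a as KLA-induced genes that lean on NCoR and HDAC3. It also reports them as reduced with Cre in this same comparison, so their direction at KLA was known when they were chosen. Ptgs2, the inducible cyclooxygenase, was at 8835 and 9716 CPM in the control KLA libraries and 5054 and 5399.9 CPM with the Cre label (-0.83 ± 0.06, adjusted p = 9.4e-14). Cp, which encodes the ferroxidase ceruloplasmin, was at 142 and 144 against 27.1 and 35.9 CPM (-2.19 ± 0.12), and Il12a, the p35 subunit of interleukin 12, at 40.4 and 39.7 against 23.6 and 25.4 CPM (-0.71 ± 0.16, adjusted p = 0.00042). The 2 genotypes did not overlap in any of them under KLA. The KLA change itself differed between genotypes for Ptgs2 (interaction -1.40 ± 0.18, called) and Cp (-2.59 ± 0.60, called) but could not be resolved for Il12a (-1.35 ± 1.52), whose Veh libraries held at most 1 count each.

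Of the 28 inflammatory cytokines and enzymes under NFκB, 16 were called lower (57.1%, against 12.9% of all genes) and 5 higher (17.9%, against 13.2%). The median was -0.76, and 11 lower against 2 higher had a called difference in KLA change. Saa3, an acute-phase protein, was at 703 and 692 CPM in the control KLA libraries and 102 and 84.1 CPM with Cre (-2.91 ± 0.08). Il1rn, the antagonist of the interleukin 1 receptor, was at 2179 and 2294 against 393 and 419 CPM (-2.46 ± 0.08), and Il6 at 724 and 850.0 against 243 and 296 CPM (-1.55 ± 0.08). Nos2, the inducible nitric oxide synthase, fell from 959 and 876 to 338 and 337 CPM (-1.44 ± 0.07), and the granulocyte growth factor gene Csf3 was lower by a log2 fold change of -2.68 ± 0.28. Il1b was lower in both Cre-labelled libraries (8028 and 8917 against 6726 and 6688 CPM) but by less than 1.5-fold (-0.34 ± 0.06).

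The 5 that rose were cytokine genes. Tnf was at 3393 and 3317 CPM in the control KLA and 7629.7 and 7372 CPM in the Cre-labelled KLA libraries (1.16 ± 0.06, adjusted p = 1.6e-17). Csf2, the granulocyte-macrophage growth factor, was at 11.3 and 9.04 against 84.4 and 69.9 CPM (2.91 ± 0.17). Lif, of the interleukin 6 family, was at 1.46 and 3.01 against 23.7 and 24.6 CPM (3.46 ± 0.31). In each of these every Cre-labelled library was more than 2 times as high as either control. Tnfsf9, which encodes the ligand of the costimulatory receptor 4-1BB (3.20 ± 0.10), and Il23a, the p19 subunit of interleukin 23 (2.52 ± 0.19), also rose. None of the 28 was called at rest.

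Of 21 chemokines measured, 9 were called lower (42.9%, against 12.9% of all genes). The 3 called higher (14.3%) were near the 13.2% of all genes. Cxcl10, an interferon-induced attractant of T cells, was at 7149 and 7301 against 2565 and 2783 CPM (-1.43 ± 0.06) and Ccl5 at 5057 and 4739.9 against 1517 and 1492 CPM (-1.70 ± 0.06). Ccl8 (-3.06 ± 0.40), Ccl12 (-2.40 ± 0.13) and Cxcl11 (-2.31 ± 0.22) were the lowest of the list. Cxcl1, a neutrophil attractant, was higher with Cre, at 152 and 156 against 660.3 and 698 CPM (2.14 ± 0.07), as were Cxcl2 (0.79 ± 0.06) and Cxcl14 (0.59 ± 0.16). The chemokine median was -0.41.

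Among the NFκB subunits and inhibitors, 5 of 18 were called higher and 2 lower, with a median of 0.36. These made 27.8% and 11.1% of the list, against 13.2% and 12.9% of all genes. A pair of promoters of the list is shown, taken in order of fold change from the members called higher whose promoter held a match to the κB motif. It was searched on both strands as GGG, any 3 bases, T, any base and CC. Matches are marked in capitals in the 250 bases before the start (RefSeq, GRCm38.p6), and each of the pair held 2.
Nfkbid, chr7:30422156-30422405, plus strand: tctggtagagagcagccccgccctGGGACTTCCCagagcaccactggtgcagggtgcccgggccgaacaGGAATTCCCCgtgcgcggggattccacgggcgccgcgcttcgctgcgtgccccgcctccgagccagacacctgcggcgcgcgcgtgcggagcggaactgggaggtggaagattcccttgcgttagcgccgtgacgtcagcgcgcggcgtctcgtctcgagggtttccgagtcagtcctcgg
Nfkbie, chr17:45555450-45555699, plus strand: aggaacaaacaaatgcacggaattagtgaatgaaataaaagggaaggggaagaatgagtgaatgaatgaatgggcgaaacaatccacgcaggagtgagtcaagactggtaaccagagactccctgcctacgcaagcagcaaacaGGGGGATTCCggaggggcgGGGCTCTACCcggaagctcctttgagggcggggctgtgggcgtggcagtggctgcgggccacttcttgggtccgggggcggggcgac
The motif was in 14.9% of all promoters, in 18% of those of tested genes and in 13 of 22 promoters of this list (59.1%), 19.7% of those of genes called higher at KLA and 18.5% of those of genes called lower. Lists with more members called lower than higher held it too, in 40.7% of interferon-stimulated promoters and 50% of those of chemokines and of MHC class I genes. Nfkbid, an atypical nuclear IκB protein, was at 33.7 and 26.4 CPM in the control KLA libraries and 86.5 and 77.2 CPM with Cre (1.44 ± 0.12), and Nfkbie, a cytoplasmic inhibitor, at 270.0 and 236 against 440.3 and 419.7 CPM (0.76 ± 0.07). Bcl3 (1.19 ± 0.08) and Nfkbiz (1.02 ± 0.06), a further pair of nuclear IκB proteins, and Relb (0.72 ± 0.09) made up the 5. Ikbkg, the regulatory subunit of the IκB kinase (-0.88 ± 0.08), and Tnip3 (-0.61 ± 0.07) were the 2 called lower.

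Of 23 genes for TLR4, its adaptors and kinases, 5 were called lower and 1 higher, which at 26.1% was the share called over all genes, and the median was 0.09 with 13 of 23 above 0. The higher count was 3 without replicate 2 of Pgc1b_flox_KLA or without replicate 1 of Pgc1b_flox_Cre_KLA. Tlr4 was at 138 and 157 against 82.7 and 87.5 CPM (-0.79 ± 0.08), Myd88 at 376 and 365 against 200.1 and 201 CPM (-0.89 ± 0.07), and Tbk1 at 266 and 278 against 152 and 157 CPM (-0.82 ± 0.07). Irak3, a brake on the MyD88 arm (-1.0 ± 0.09), was also lower, and Mapk14, which encodes the kinase p38α, was higher, at 163 and 169 against 353 and 369.9 CPM (1.12 ± 0.07). Of the 8 other Toll-like receptors measured, 6 were lower (75%, against 12.9% of all genes) and none higher. Tlr3, the sensor of double-stranded RNA, was at 287 and 301 against 67 and 77.8 CPM (-2.02 ± 0.09), and Tlr9 (-2.56 ± 0.20) and Tlr8 (-0.95 ± 0.07) were lower too. The AP-1 and ATF list had 8 of 19 lower (42.1%, against 12.9% of all genes) and none higher. The count of 8 was smaller without replicate 1 of Pgc1b_flox_KLA. Fos was at 49.9 and 47.2 in the control KLA and 7.28 and 8.44 CPM in the Cre-labelled KLA libraries (-2.63 ± 0.13), Batf2 was lower by -2.12 ± 0.10 and Maf by -1.84 ± 0.06. Of 22 early primary response genes 3 were higher (13.6%, near the 13.2% of all genes) and 6 lower (27.3%, against 12.9%). Those higher were the nuclear receptor gene Nr4a3 (2.78 ± 0.21), Klf2 (2.55 ± 0.24) and the phosphatase gene Dusp2 (0.95 ± 0.10). Klf4 (-1.33 ± 0.19) and Nr4a2 (-1.37 ± 0.40) were among those lower.

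Serpina3g, a serine protease inhibitor of a multigene cluster whose members may share reads, was at 266 and 242 CPM in the control KLA libraries and at 2.89 and 5.22 CPM with Cre (-5.98 ± 0.20). Cfb, complement factor B, was at 228 and 240.3 against 12 and 12.4 CPM (-4.26 ± 0.13), and Tifab, an inhibitor of the TRAF6-binding protein TIFA, at 185 and 179 against 9.89 and 12 CPM (-4.06 ± 0.11). For Tifab the Veh libraries lay between the KLA groups, at 109 and 111 CPM in the controls and 127 and 117 CPM with Cre, so KLA raised it without Cre and lowered it with Cre, called in both (interaction -4.21 ± 0.13). Il21r, the interleukin 21 receptor, had the same form, with 20.8 and 22.5 and 23.4 and 25 CPM at rest against 66 and 64.3 and 5.88 and 2.11 CPM at KLA (-4.0 ± 0.20). The other genes among the 10 lowest were Clic5 (-4.71 ± 0.18), Ms4a4c (-4.21 ± 0.25), Serpina3f (-4.18 ± 0.13), the fibrillin gene Fbn1 (-4.16 ± 0.46), Gbp4 (-4.12 ± 0.14) and Iigp1.

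Rnd1, a small GTPase, led the genes called higher, at 5.20 and 5.40 CPM in the control KLA and 142 and 138 CPM in the Cre-labelled KLA libraries (4.72 ± 0.15), with 0.974 and 1.07 and 1.31 and 1.14 CPM at rest. St6gal1, a sialyltransferase, was at 73.8 and 77.7 and 79.8 and 76 CPM at rest, and KLA left 0.833 and 1.0 CPM in the controls and 25 and 21.8 CPM with Cre (4.67 ± 0.24). Nav2, a neuron navigator protein gene, went from 94.2 and 103 and 99.9 and 96.2 CPM to 1.87 and 2.64 and 52.7 and 47.7 CPM (4.49 ± 0.17). Rnd1 was thus induced more with Cre, whereas St6gal1 and Nav2 were repressed by KLA in both genotypes and less with Cre. Arhgap18 (3.32 ± 0.16), Maml3 (4.12 ± 0.41) and the mitotic kinase gene Pbk (3.31 ± 0.35) were likewise lower in every KLA library than at rest, except Maml3 with the Cre label, which was at 9.82 and 8.96 CPM under Veh and 7.18 and 9.04 CPM under KLA. Rhof (3.58 ± 0.22), the tissue plasminogen activator gene Plat (3.29 ± 0.24), Lif and Tnfsf9 completed the 10 highest and were higher under KLA than Veh in every Cre-labelled library.

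Cell division genes formed the group most uniformly higher. Of 22 measured, 17 were called higher with the Cre label at KLA and 1 lower, with a median of 1.50, and none was called at rest, where the median was -0.22. Mki67, which encodes the proliferation marker Ki-67, was at 251 and 197 CPM in the Veh controls and 166 and 178 CPM with Cre, and at 60.4 and 69.2 against 215 and 257 CPM under KLA (1.87 ± 0.11). Rrm2, a subunit of ribonucleotide reductase, went from 76.8 and 73 and 60.5 and 63 CPM at rest to 3.54 and 5.02 and 32.4 and 27.6 CPM under KLA (2.83 ± 0.17). The control KLA libraries were the low ones, since KLA lowered 19 of the 22 genes without Cre and 12 with it, with medians of -2.20 and -0.62. The interaction term called 17 in the higher direction and 1, Ccnd2, in the lower. The spindle checkpoint kinases Bub1 (2.46 ± 0.23) and Bub1b (2.47 ± 0.29) were next in size, and the exception was Ccnd2, cyclin D2, which KLA induced in both genotypes, at 1162 and 1132 against 398 and 450.5 CPM (-1.43 ± 0.07). In bulk RNA a change in the share of dividing cells and a change in RNA per cell cannot be told apart.

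Among the processes PGC1β is best known for, few respiratory chain genes were called, though most were slightly lower with the Cre label at KLA. There 42 of 48 lay below 0, against 22 at rest. When no fold threshold was set, 15 were lower at KLA at an adjusted p below 0.05. Of 48 nuclear-encoded subunits, 1 was called lower and none higher at KLA (4 lower without replicate 2 of Pgc1b_flox_KLA), with a median of -0.16, and none was called at rest, where the median was 0.02. The one was Cycs, cytochrome c, at 5.72 and 4.52 against 1.96 and 1.51 CPM (-1.56 ± 0.45), a low level for a gene with many processed copies. Of 12 PGC1 coactivators, estrogen-related receptors and nuclear respiratory factors, 1 was higher (Gabpb1, 0.61 ± 0.16) and 1 lower (Perm1, a muscle regulator under PGC1, -1.40 ± 0.18). That was 16.7% of the list, against 26.1% of all genes. Esrra, the main partner of PGC1β, was at 76.9 and 62.6 against 65.3 and 54.1 CPM (-0.23 ± 0.12, not called), and Tfam, the mitochondrial transcription factor, was not called either (-0.22 ± 0.16). Of the tricarboxylic acid cycle and fatty acid oxidation list 15.6% was called, below the 26.1% of all genes. It had 4 of 32 higher, among them Idh1 (0.77 ± 0.08), Hadh (0.73 ± 0.12) and Suclg2 (0.70 ± 0.29). The carnitine palmitoyltransferase gene Cpt1a was the 1 lower (-0.71 ± 0.09). Hypoxia factors and glycolysis were called at the share of all genes (25.9% against 26.1%), with 3 of 27 higher, namely Epas1 (1.87 ± 0.22), Vegfa (1.46 ± 0.23) and Egln1 (0.62 ± 0.11), and 4 lower, among them Hk3 (-0.90 ± 0.06), Hk1 (-0.84 ± 0.08) and Vhl (-0.64 ± 0.14).

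Osteoclast genes were higher with the Cre label where they changed. Of 9 measured, 5 were called higher at KLA and none lower, with a median of 0.73. Nfatc1, the master factor of osteoclast formation, was at 51.5 and 54.7 and 58.3 and 50.6 CPM at rest, and KLA left 13.6 and 15.2 CPM without and 59.2 and 62.9 CPM with the Cre label (2.09 ± 0.13). Atp6v0d2, a proton pump subunit, was at 203 and 224 against 542 and 567 CPM (1.38 ± 0.06), and Itgb3, the integrin β3 chain, at 2.08 and 1.26 against 9.70 and 8.54 CPM (2.42 ± 0.29). Ctsk (0.85 ± 0.19) and Dcstamp (0.73 ± 0.12) were the other members that rose. Acp5, which encodes tartrate-resistant acid phosphatase and which the study names, had the other pattern, at 7.55 and 12.3 against 17.6 and 16.6 CPM at rest (0.77 ± 0.15, called) and 82.1 and 76.5 against 86.1 and 82.9 CPM under KLA (0.09 ± 0.11, not called), and Ocstamp, also named there, was not called (0.63 ± 0.59).

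Among 10 measured markers of alternative activation, 5 were called higher and 2 lower at KLA (50% and 20%, against 13.2% and 12.9% of all genes). Mrc1, the mannose receptor, was at 122 and 136 against 241 and 259 CPM (0.96 ± 0.07), Pparg at 0.91 ± 0.18 and Fn1 at the values above, whereas Il4ra was lower (-1.08 ± 0.08). The 16 NRF2 antioxidant genes had 4 lower and 1 higher, or 31.25% called against 26.1% of all genes. Hmox1, heme oxygenase 1, was at 1263 and 1361 against 433 and 415 CPM (-1.63 ± 0.06), Keap1, the repressor of NRF2, at -1.39 ± 0.08, and the glutathione reductase gene Gsr at -1.24 ± 0.08, with Gpx1 higher (0.59 ± 0.08). Of 16 genes of the unfolded protein and amino acid stress list, 3 were higher (18.75%, against 13.2% of all genes) and none lower. Herpud1, of the degradation complex in the endoplasmic reticulum, was at 25.1 and 25 against 87.5 and 84 CPM (1.78 ± 0.12), with Hspa1b (1.20 ± 0.16) and Ppp1r15a (0.79 ± 0.08) beside it. Targets of the oxysterol receptor LXR were also called at the share of all genes (13.3% in each direction, against 13.2% higher and 12.9% lower), with 2 of 15 higher, Abca9 (1.27 ± 0.20) and Scd1 (0.78 ± 0.19), and 2 lower, the cholesterol exporter gene Abcg1 (-1.20 ± 0.07) and Nr1h3 (-0.93 ± 0.12), which encodes LXRα. Cholesterol synthesis had 1 of 22 higher, Dhcr7 (1.14 ± 0.20), and 2 lower, Lss (-0.78 ± 0.13) and Pmvk (-0.78 ± 0.21). Those called made 13.6% of that list, below the 26.1% of all genes.

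All 12 macrophage markers on the list passed the filter on low counts in these libraries, and at KLA 4 were called lower and none higher, with a median of 0.01. Those called lower made 33.3% of the list, against 12.9% of all genes. Fcgr1, the high-affinity receptor for IgG, was at 79.2 and 79.2 and 72.4 and 73.7 CPM at rest, rose to 845 and 781 CPM with KLA in the controls and was at 69.7 and 77.9 CPM with the Cre label (-3.46 ± 0.07). Mertk, a receptor for apoptotic cells, was at 129.8 and 132 against 26 and 36.7 CPM (-2.07 ± 0.11), and Adgre1, which encodes F4/80, was lower by -0.80 ± 0.05, and the fourth was Lyz2, the locus of the Cre insertion, whereas Csf1r (0.29 ± 0.06), Cd68 (0.15 ± 0.06) and Itgam (0.18 ± 0.06) were not called. Markers of other cells were scarce: 2 of 11 neutrophil, 1 of 9 lymphocyte, 3 of 8 fibroblast and 1 of 8 erythroid and mast cell markers were tested, with summed levels of 1.80 to 6.87, 0.833 to 3.21, 1.30 to 29.7 and 0.668 to 3.72 CPM. Elane, Ctsg, Ly6g, Ncr1 and Lum were at 0 in all 8 libraries. The neutrophil sum was 4.77 and 6.87 CPM in the control KLA and 2.01 and 2.61 CPM in the Cre-labelled KLA libraries, and its granule protein gene Ngp was called lower, with 13 and 12 counts against 1 and 0 (adjusted p = 0.0037). The fibroblast sum was at 22.4 to 29.7 CPM in the KLA libraries of both genotypes, nearly all of it Pdgfrb (not called), and at most 4.34 CPM at rest. Of the collagen genes, Col1a2 was called higher at KLA, with 1 and 0 counts against 7 and 10 (adjusted p = 0.032), and Col1a1 was called for the interaction in the lower direction, with 0 and 1 counts in the Veh controls, 6 and 21 with Cre, and 12 and 0 against 0 and 7 under KLA. Of 8 dendritic cell markers 3 were tested, with sums of 309.5 and 355 CPM in the control KLA and 455 and 471 CPM in the Cre-labelled KLA libraries, carried by Itgax (0.48 ± 0.07, not called), and Zbtb46 was called higher at low levels (1.04 and 0.251 against 6.34 and 4.32 CPM). The part of these markers in the other results was not tested.

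Across the genome the KLA change was smaller with the Cre label. The KLA responses of the 2 genotypes share no library, and 1824 genes were called induced in both, which was 65.4% of the 2787 induced without Cre (22.8% of genes tested) and 77.7% of the 2348 induced with it (19.2%). Of the 3133 lowered without Cre (25.7%) and the 2509 lowered with it (20.6%), 1868 were shared, or 59.6% and 74.5%. Either direction together made 48.5% of tested genes without Cre and 39.8% with it. Only 45 genes induced without Cre were called lowered with it, and 31 went the other way. To choose KLA-responsive genes independently of these libraries, the responses of wild-type BMDMs in a pair of other tables of the series were used. Among the 2990 genes induced in both of them, the median log2 KLA change was 1.22 without and 0.84 with the Cre label, and 1024 (34.2%) were called lower and 177 (5.92%) higher with Cre at KLA. Among the 3153 genes lowered in both, the medians were -1.25 and -0.83, and 1001 (31.7%) were called higher and 121 (3.84%) lower. Of the 5884 other genes tested here and in either or both of that pair, 7.12% were called higher and 7.10% lower. A further 178 genes tested here were tested in neither of the pair. The KLA change in the direction of the set was larger without Cre for 71.9% of the induced and 75% of the lowered genes, with no test since genes are not replicates.

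**Figure D3:**
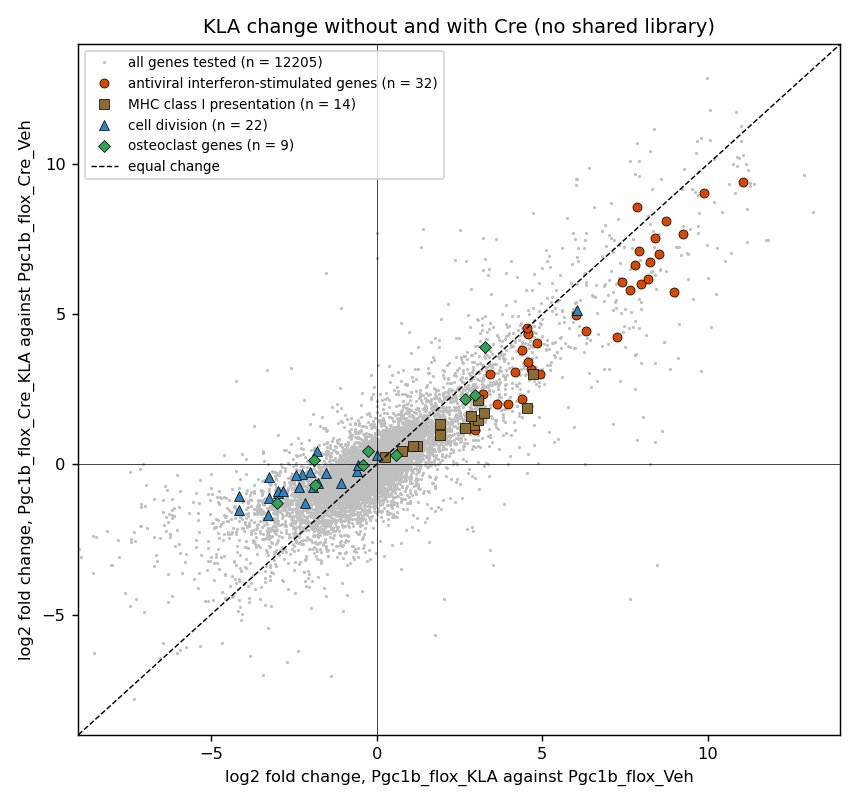
Log2 fold change with KLA in the control libraries (horizontal) and in the Cre-labelled libraries (vertical) for the 12205 genes tested (grey points) and for 4 gene lists (coloured symbols), with the dashed line at equal change. The interferon-stimulated genes and MHC class I genes lie mostly below the line on the induced side and most cell division genes above it on the lowered side.

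How the KLA libraries stood beside others of the series was described on a joint scale of 11866 genes, with the 6 control KLA libraries of the other tables (WT_KLA, KLA and DMSO_KLA) as a reference range. These come from other preparations, and they differ in sex as well: the 8 Pgc1b_flox libraries held at most 1 count of Xist and at least 1570 counts of 4 Y-linked genes, whereas the 6 reference libraries held at least 5206 of Xist and at most 1 of the Y-linked genes. Genotype line, preparation and sex cannot be told apart there, so no test was made. Both Cre-labelled KLA libraries lay below the reference range for 29 of 29 interferon-stimulated genes, with median deviations of -2.23 and -2.11 on the log2(CPM + 1) scale, and both control KLA libraries lay below it for 19, with medians of -0.40 and -0.40. For cell division genes both Cre-labelled libraries lay above the range in 15 of 18 and both controls in 10, with medians of 1.81 and 1.83 against 0.46 and 0.82. The flox controls thus departed from the reference in the same direction as the Cre-labelled libraries and by less in both lists. For the respiratory chain 29 of 47 genes were above the range in the controls and 16 in the Cre-labelled libraries. Ppargc1b itself lay below its reference range (11.5 to 19.7 CPM on this scale) in all 4. It was at 7.81 and 6.75 CPM in the flox controls and at 10.3 and 8.80 CPM in the Cre-labelled KLA libraries. Over all genes the controls lay below the range for 2268 and above it for 1703, and the Cre-labelled libraries for 3239 and 2996.

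**Figure D4:**
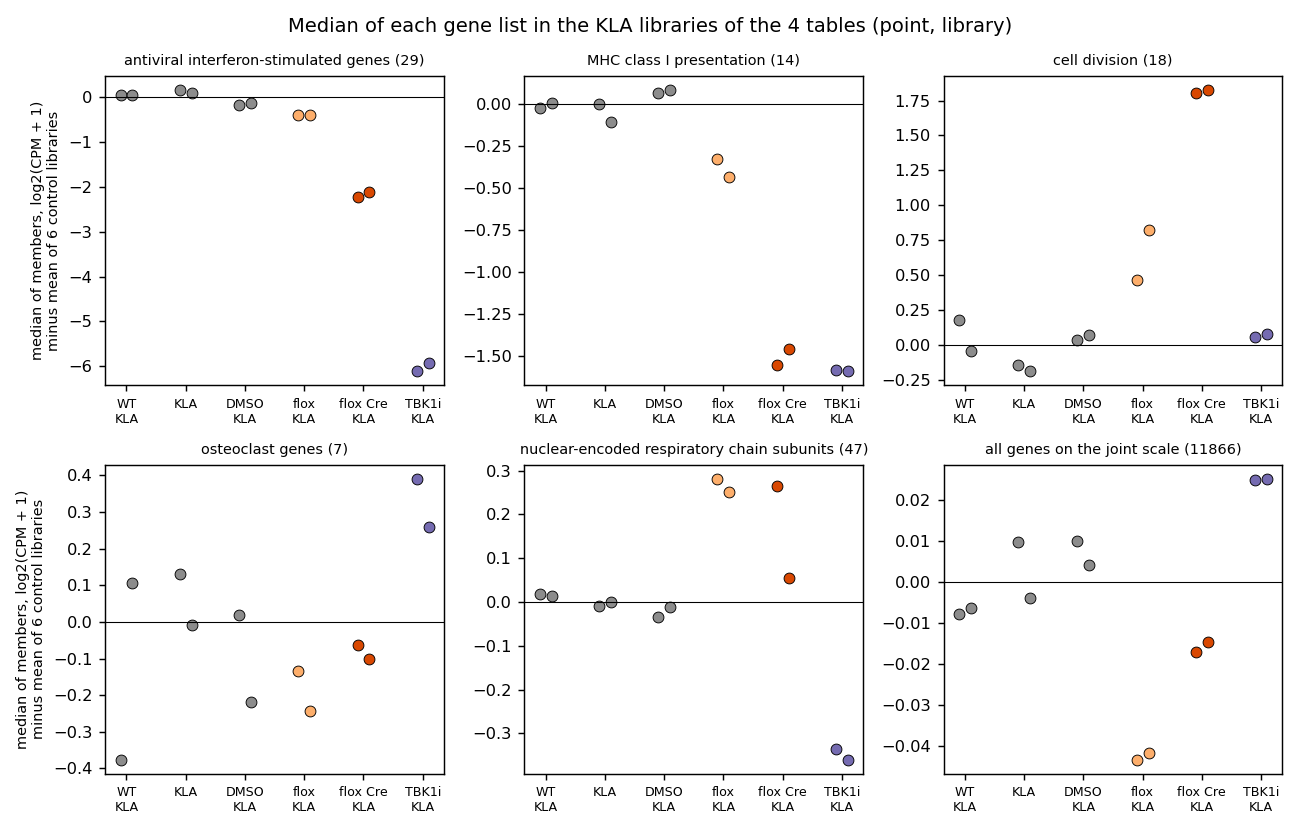
Median over the members of 5 gene lists, and over all 11866 genes, of log2(CPM + 1) minus the mean of the 6 control KLA libraries of the other tables (WT KLA, KLA, DMSO KLA), for each KLA library. Points are libraries, axes differ between panels, and numbers of genes are in brackets. Interferon-stimulated genes were lower in the Cre-labelled libraries (-2.23 and -2.11) than in the flox controls (-0.40 and -0.40) and lower still with the TBK1 inhibitor, and cell division genes were highest in the Cre-labelled libraries (1.81 and 1.83).

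Since the interferon arm runs through TBK1, the Cre difference at KLA was set beside the effect of a TBK1 inhibitor at KLA in BMDMs of another table, which shares no library with it. Across 11904 genes the log2 fold changes had a Pearson r of 0.585, given as a description since genes are not independent. The medians over the interferon-stimulated genes were -1.73 with the Cre label and -6.27 with the inhibitor, and over MHC class I genes -1.05 and -1.74. Inflammatory cytokines and enzymes were at -0.76 and -0.80 and chemokines at -0.41 and -1.43. The lists parted for cell division, at 1.50 with the Cre label and 0.09 with the inhibitor, and for hypoxia factors and glycolysis, at -0.02 and 0.66.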

How the data were processed

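The authors aligned reads to mm10 with STAR and counted reads in exons of RefSeq transcripts with HOMER, and per the file headers the deposited values are raw counts, without normalization and with 1 transcript kept per gene. The study's methods describe strand-specific counting but the headers name no strand option, so overlapping and antisense genes are uncertain. Of 24940 genes listed, 12205 passed edgeR's filterByExpr. All 8 libraries were fitted in one model of 4 groups with edgeR 4.0.16 in R 4.3.3 (TMM scaling, robust quasi-likelihood fit, common biological coefficient of variation 0.0665), with TMM factors of 1.21 to 1.24 at Veh, 0.761 and 0.764 in the control KLA and 0.873 and 0.88 in the Cre-labelled KLA libraries. Tests were 2-sided F-tests with Benjamini-Hochberg adjustment over all tested genes, with each SE derived from the fold change and its F value. Exact permutation of 2 libraries against 2 cannot reach 0.05 for a single gene. The members and gene lists were chosen with earlier results of these data known, and lists are described by counts and medians without a set test. Genes named are the label checks, genes the study names, the 10 highest and 10 lowest called genes at KLA (5 and 5 at rest and for the interaction) with a mean of 5 CPM or more in either group, and up to 3 called members per list and direction, plus members a sentence needed. On simulated counts for Pgc1b_flox_Cre_KLA against Pgc1b_flox_KLA (11920 genes), 95 of 100 genes changed 2-fold and 100 of 100 changed 4-fold were recovered and 5 unchanged genes were called. Every simulated gene had the common coefficient of variation and no KLA effect, and far fewer genes changed than in the data. The simulation checks the computation and does not measure recovery or false calls in the real data. All 8 library names carry one date. Replicates differed beyond sampling noise (chi-square per degree of freedom 3.35 to 4.31). Alternatives were DESeq2 1.42.0, its size factors, other filters on low counts, the replicate number as a block, single libraries left out, only the compared groups, scaling without the 20 most abundant genes and no fold threshold. For the joint scale, counts of all 4 tables were scaled together. Promoters were matched to RefSeq by symbol (GRCm38.p6). A floor of 3 counts per library, which covers counting error only, replaced 0 in bounds on folds. Results for a few genes are not reported here.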

Additional observations from a re-analysis of the deposited data

Results flagged for a closer look

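The KLA change differed between the Cre-labelled and control libraries, by edgeR's interaction term, for 1414 genes in the higher direction and 1370 in the lower. These made 11.6% and 11.2% of the genes tested. By list (higher count first) the term called 2 and 11 of 28 inflammatory cytokines and enzymes and 1 and 8 of 21 chemokines. Among interferon-stimulated genes the counts were 0 and 23 of 32, and among interferon regulatory factors, interferons and STATs 4 and 8 of 24. They were 6 and 1 of 18 NFκB subunits and inhibitors and 0 and 7 of 19 AP-1 and ATF factors. Early primary response genes had 1 and 5 of 22 and the TLR4 pathway 3 and 5 of 23. Other Toll-like receptors had 0 and 6 of 8, hypoxia and glycolysis 3 and 4 of 27 and osteoclast genes 4 and 1 of 9. MHC class II and costimulatory genes had 4 and 9 of 14 and MHC class I genes 0 and 11 of 14. Cell division genes had 17 and 1 of 22. The counts for hypoxia and glycolysis and the higher count of the TLR4 pathway were near the shares over all genes.

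Among called genes with a mean of 5 CPM or more in at least 1 of the 4 groups, the lowest interaction terms on the log2 scale were those of Ido2 (-6.70), Fbn1 (-6.46), Mir6381 (-5.56), Serpina3g (-5.52) and Cxcl3 (-5.02). All 5 had 8 counts or fewer in every Veh library, so the fitted size depends on the prior count, and at KLA the levels of Cxcl3 overlapped between the groups (394 and 452 against 445 and 457 CPM, adjusted p = 0.31 by edgeR). Without replicate 2 of Pgc1b_flox_Cre_Veh the term of Serpina3g was -1.53 and that of Cxcl3 -4.05, neither called.

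The highest in the same set were those of Sox4 (6.77), Tmem150b (6.16), Pcyt1b (5.84), Cdca7 (5.70) and Clspn (5.04), which KLA lowered in both genotypes and more without Cre. Sox4, a developmental transcription factor gene, was at 17.8 and 19.7 CPM in the Veh controls, 18.3 and 19.4 CPM in the Cre-labelled Veh libraries, 0 in both control KLA libraries and 1.21 and 1.0 CPM in the Cre-labelled KLA libraries. Against a floor of 3 counts per library, it was at least 3.22-fold higher with the Cre label at KLA. Tmem150b, Pcyt1b and Cdca7 were also at 0 in both control KLA libraries, so their fitted sizes depend on the prior count. Clspn, of the replication checkpoint, was at 0.312 and 0 CPM in the control KLA and 5.13 and 4.32 CPM in the Cre-labelled KLA libraries.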

How the results depend on the processing

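Replicate numbers did not pair the samples (same-number correlations of deviations -0.0495 to 0.0501), and with the replicate block 1588 genes were called higher and 1564 lower at KLA, 21 and 17 at rest, and 1399 and 1347 for the interaction. Without a fold threshold the counts were 2528 and 2656 at KLA, 59 and 31 at rest, 3667 induced by KLA with Cre, and 114 and 197 members over all lists together (68 and 128 with it), where 22 of the 44 counts of single lists moved by over 1.5 times, among them respiratory chain lower (1 to 15), cholesterol synthesis lower (2 to 11), hypoxia and glycolysis higher (3 to 10) and TLR4 pathway higher (1 to 7). Leaving out a KLA library moved 2 to 5 of the 44 and a Veh library none. Those moved were NFκB lower (2 to 1), AP-1 lower (8 to 5), TLR4 pathway higher (1 to 3), respiratory chain lower (1 to 4), cholesterol synthesis lower (2 to 4), and by 1 gene the NCoR, PGC1, NRF2 and unfolded protein lists. At rest DESeq2 called 9 higher, with no adjusted p for 11 of the 20, and the fit of the compared groups alone called 33. Leaving out single libraries gave 13 to 33 higher and 9 to 26 lower at rest, 1487 to 1738 higher and 1383 to 1593 lower at KLA, and 1270 to 1584 and 1225 to 1354 for the interaction, which has no fit of the compared groups alone. Other counts over all genes stayed within 1.5 times the reported ones, and scaling moved the median of all genes by at most 0.0247 on the log2 scale. Of 137 gene values selected by the naming rule, 119 kept their direction and call in every refit and none reversed. The other 18 lost the call in 40 refits in all. At KLA these were Suclg2 under DESeq2 (adjusted p 0.099), under its size factors (0.054) and without Pgc1b_flox_KLA replicate 1 or 2 or Pgc1b_flox_Cre_KLA replicate 2. Nr4a2 lost the call without Pgc1b_flox_KLA replicate 1, Ciita without Pgc1b_flox_Cre_KLA replicate 1 and Gabpb1 without Pgc1b_flox_Cre_KLA replicate 2. For Egln1, Vhl, Tnip3, Cxcl14 and Gpx1 the fold fell below 1.5 (also under DESeq2 for the last pair). Zbtb46 lost the call under DESeq2 (adjusted p 0.072). At rest they were Usp18 and Pla2g16 (adjusted p 0.11 and 0.056 in the fit of the compared groups alone), each also without single Veh libraries. Plxna4 lost it without any one Veh library and Rpl13 without either Pgc1b_flox_Veh library or Pgc1b_flox_Cre_Veh replicate 2. The losses of Rtp4, Oas3, Oasl1 and Xaf1 given above are not among these 18. For the interaction they were Serpina3g and Cxcl3 without Pgc1b_flox_Cre_Veh replicate 2, and Pcyt1b and Cdca7 without Pgc1b_flox_KLA replicate 1. Pcyt1b also lost it without Pgc1b_flox_Cre_KLA replicate 1 and Cdca7 without Pgc1b_flox_Cre_KLA replicate 2. Causes were not tested. Depth limits genes near 3 counts per library, and 2 libraries a group limit the resting comparison.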
